A study of Mus musculus with 194 samples.

Results

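The genes described here were picked for insertions that the transcription factor SP1, fused to a transposase, left in the mouse cortex. Most of the 10 loci held a dense cluster of these insertions, and Atg4d did not. The genes are Limk1, Mier3, Asf1a, Vkorc1l1, Zdhhc20, Sin3a, Garnl3, Carm1, Atg4d and Foxh1. They are 10 of the 21631 genes that were counted, all coding for protein, and they were picked for high SP1 insertion values in these same data, so their excess over unfused transposase is a description and carries no test of its own. A locus is the gene body with 10 kb on each side. Its level is given in CPM, the insertions in the locus per 1000000 insertions of the table on chromosomes 1 to 19 and X.

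The study recorded transcription factor binding with calling cards: viruses injected at postnatal day 0 to 1 carried a transposase and a self-reporting transposon, which enters the genome at the letters TTAA and is read out from its own RNA. Each deposited insertion table belongs to 1 animal, except the N2a table. The groups used most are Syn1Cre_SP1_P10 (3 animals) and Syn1Cre_SP1_P28 (4 animals), in which SP1 was fused to the transposase and cortex was taken at postnatal day 10 or 28, and Syn1Cre (6 animals), which the labels give no SP1 and no collection age. Further groups are GFAPCre (6 animals), C57bl6J (2 animals, given viruses that need no Cre) and N2a, a mouse neuroblastoma line whose experiments form 1 pooled table with no animal replicates. Summed levels are also given for the Cre-negative groups Syn1CreNeg and GFAPCreNeg (6 animals each), for Frontflip_GFAPCre and Frontflip_GFAPCreNeg (3 animals each; the labels do not say what Frontflip is), for Rbp4Cre_TRAP (4 animals, whole forebrain) and for BrokenHeart (3 animals, DNA read-out, no Cre line named). All animals share the injection. Syn1Cre lines express Cre under a neuronal promoter and GFAPCre under an astroglial one. Cre-negative animals also held insertions, from 97519 to 556145 per animal in Syn1CreNeg, and the labels name no Cre-negative SP1 group. An SP1 value therefore comes from the transduced cells of a whole cortex and cannot be assigned to Cre-positive cells alone. A locus with fewer hit cells and one with fewer insertions per cell cannot be told apart in such bulk tissue. No sequencing pool held both SP1 and Syn1Cre material, so pool and fusion cannot be told apart.

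SP1 is a zinc-finger activator that binds GC boxes, short G- and C-rich elements common in the promoters of widely expressed genes. A transposase tethered to it inserts near the places where SP1 sits, at a nearby TTAA. Unfused transposase of this type has a preference of its own for open and active chromatin, and the Syn1Cre and C57bl6J tables measure that preference.

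Depth differed widely. There were 86842 to 95331 insertions per animal at P10 and 108965 to 577609 at P28, against 443158 to 1364948 in Syn1Cre. The N2a table held 806653. Each cortex was cut into 10 pieces, so an animal can show at most 10 insertions at a position on a strand, and that ceiling was reached somewhere in the genome in all 7 SP1 tables.

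The label "promoter" was checked against annotated starts of RefSeq genes (GRCm38.p6, the same primary coordinates as mm10, the build in the submitters' processing notes). For each locus the 2-kb window with the most SP1 insertions was found, and its median position was set against the start. In 7 of the 10 loci the median lay 398 to 1116 bp from an annotated start of the gene itself. These include Atg4d, whose window held only 21 SP1 insertions. They also include Sin3a, where the start of the noncoding gene 2700012I20Rik was nearer (683 bp) than its own (1010 bp). The other 3 loci are Mier3, Carm1 and Foxh1. The Mier3 window lay 6776 bp past the upper end of the gene, 39194 bp from its start. The Foxh1 window lay 7788 bp below the lower end of Foxh1, where the Cyhr1 and Kifc2 genes overlap. Carm1 and Foxh1 have no start in the table used, and positions for them are given from gene ends.

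The promoter windows below are shown because the choice of genes did not use their sequence: 4 of them show a run of GC boxes, the element SP1 binds, and Mier3 and Atg4d are given for contrast. Each window is 300 bases, from 250 before to 50 after the start, from RefSeq, GRCm38.p6, printed 5′ to 3′ on the strand of the gene. Capitals mark GC boxes, searched as GGGCGG and its complement CCGCCC, overlaps allowed. The windows are Limk1 (second listed start, chr5:134688541-134688840, minus strand), Vkorc1l1 (chr5:129941859-129942158, plus), Zdhhc20 (chr14:57890287-57890586, minus), Garnl3 (the listed start farther from the insertion cluster, chr2:33130570-33130869, minus), Mier3 (chr13:111685928-111686227, plus) and Atg4d (chr9:21265035-21265334, plus).
Limk1: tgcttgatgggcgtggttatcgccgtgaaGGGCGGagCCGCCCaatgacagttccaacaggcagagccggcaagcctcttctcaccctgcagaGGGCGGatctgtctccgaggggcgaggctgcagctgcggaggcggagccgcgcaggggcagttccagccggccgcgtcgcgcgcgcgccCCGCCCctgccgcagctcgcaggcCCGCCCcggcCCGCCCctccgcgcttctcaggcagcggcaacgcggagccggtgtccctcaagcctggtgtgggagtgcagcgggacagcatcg
Vkorc1l1: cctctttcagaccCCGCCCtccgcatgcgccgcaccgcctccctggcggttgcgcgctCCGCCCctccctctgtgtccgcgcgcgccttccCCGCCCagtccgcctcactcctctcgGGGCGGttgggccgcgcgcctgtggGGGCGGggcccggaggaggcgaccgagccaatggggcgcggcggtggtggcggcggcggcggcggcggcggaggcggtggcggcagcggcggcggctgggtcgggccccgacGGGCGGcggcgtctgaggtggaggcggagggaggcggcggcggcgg
Zdhhc20: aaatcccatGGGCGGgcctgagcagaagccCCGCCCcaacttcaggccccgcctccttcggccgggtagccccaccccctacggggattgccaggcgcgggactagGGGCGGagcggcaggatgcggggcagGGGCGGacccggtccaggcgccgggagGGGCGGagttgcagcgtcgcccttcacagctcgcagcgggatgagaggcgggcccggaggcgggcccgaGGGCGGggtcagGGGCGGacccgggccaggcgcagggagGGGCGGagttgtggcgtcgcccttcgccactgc
Garnl3: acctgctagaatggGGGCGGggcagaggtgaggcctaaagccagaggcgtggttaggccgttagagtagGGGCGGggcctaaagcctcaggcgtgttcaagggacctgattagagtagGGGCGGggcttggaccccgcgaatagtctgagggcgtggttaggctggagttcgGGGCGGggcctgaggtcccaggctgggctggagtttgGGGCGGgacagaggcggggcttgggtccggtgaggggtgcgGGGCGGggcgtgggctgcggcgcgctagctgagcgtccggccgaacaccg
Mier3: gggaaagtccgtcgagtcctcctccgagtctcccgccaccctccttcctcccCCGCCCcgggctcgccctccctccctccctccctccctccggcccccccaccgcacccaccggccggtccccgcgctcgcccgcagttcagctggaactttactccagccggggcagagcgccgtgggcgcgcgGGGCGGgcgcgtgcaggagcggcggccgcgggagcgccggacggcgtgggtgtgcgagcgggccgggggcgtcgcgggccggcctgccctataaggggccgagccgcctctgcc
Atg4d: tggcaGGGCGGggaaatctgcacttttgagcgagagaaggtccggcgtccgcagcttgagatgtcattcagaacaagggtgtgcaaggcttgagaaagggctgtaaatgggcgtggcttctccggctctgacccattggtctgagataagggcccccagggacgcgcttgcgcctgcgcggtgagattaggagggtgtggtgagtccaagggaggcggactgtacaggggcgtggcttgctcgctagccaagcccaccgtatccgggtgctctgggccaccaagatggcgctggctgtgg
Zdhhc20 held 8 GC boxes, a number that 0.262% of all 32851 promoter windows of this length reached. Limk1, Vkorc1l1 and the printed Garnl3 window held 6 each, which 1.35% of windows reached. The median of the insertion cluster lay upstream of the printed start in each of these 4 genes. Sin3a held 3 at its second start, and Asf1a and Mier3 held 2. The Atg4d window held 1, and 35.7% of all windows held at least 1. The first listed Limk1 start held none, and neither did the Garnl3 start nearest the cluster. The printed Limk1, Vkorc1l1, Zdhhc20 and Garnl3 windows were also rich in G and C, from 68.7% (Garnl3) to 81.7% (Vkorc1l1). The median over all windows was 52.7%, and Mier3, with 2 boxes, stood at 78.7%. The part of base composition in the counts of GC boxes and of TTAA was not tested. A match describes the letters and is not a bound site.

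The insertion itself falls on TTAA, and the printed windows of Limk1, Vkorc1l1, Zdhhc20, Garnl3, Mier3 and Atg4d contain no TTAA, although 52.4% of all promoter windows do. Sin3a is the only member with a promoter entry that has TTAA there, at both of its listed starts. The site at chr9:57072069, 29 bases after the first start, took 11 insertions at P10, 21 at P28 and 3 in Syn1Cre, and the site at chr9:57076319, 57 bases before the second start, took 4, 10 and 0. The plus strand around each is shown with the TTAA of that site in capitals; the first stretch holds a further TTAA in lower case.
Sin3a first start: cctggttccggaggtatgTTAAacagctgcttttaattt
Sin3a second start: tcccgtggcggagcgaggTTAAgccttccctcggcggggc

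Limk1 encodes a LIM-domain kinase that phosphorylates cofilin and so slows the turnover of actin filaments. Its locus (chr5:134656039-134689859 without flanks) gave 438, 524 and 577 CPM in the 3 P10 animals and 315, 367, 346 and 249 CPM in the 4 P28 animals. In the 6 Syn1Cre animals it gave 11.3 CPM at the lowest, 13.9 at the median and 21.5 at the highest. Every SP1 animal lay far above every Syn1Cre animal. The mean was 34.7 times that of Syn1Cre at P10 and 21.6 times at P28. The cluster held 351 of the SP1 insertions, 77.3% of those in the locus, on 21 positions between chr5:134688983 and chr5:134690914. The busiest position, chr5:134689463, lies 873 bp upstream of the second listed start and took 27 insertions at P10 and 38 at P28. Both it and the cluster median lie inside the annotated gene body, the median 153 bp from the upper gene end.

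Vkorc1l1, a paralogue of the vitamin K epoxide reductase that restores reduced vitamin K, had the highest level of the 10 loci at P10. It gave 714, 914 and 871 CPM at P10 and 483, 753, 589 and 343 CPM at P28. Syn1Cre animals ran from 40.6 to 55.8 CPM with a median of 46.8. No SP1 animal overlapped with them, and the ratio of means was 17.4 at P10 and 11.4 at P28. Of the SP1 insertions in the locus, 81.2% fell between chr5:129939719 and chr5:129941704, all of that window upstream of the start at chr5:129942109.

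Sin3a encodes the scaffold of a histone deacetylase corepressor complex. It gave 553, 668 and 661 CPM at P10 and 375, 578, 517 and 270 CPM at P28, against 21.5 to 54.2 CPM in Syn1Cre. The ratios of means were 16.7 and 11.6. The cluster did not sit at the first start. Its median, chr9:57075366, lay 1010 bp upstream of the second listed start, inside the gene body. The median also lay within the span of the noncoding gene 2700012I20Rik. The lower end of that gene was at 163 bp, and its upper end, its annotated start, at 683 bp.

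Zdhhc20, a palmitoyltransferase that attaches palmitate to proteins, gave 518, 479 and 493.1 CPM at P10, the smallest relative spread of the 10 loci. At P28 it gave 315, 349, 425 and 270 CPM, and Syn1Cre ran from 38.4 to 56.1 CPM. Its window straddled the start: the median position lay 499 bp upstream, and 58.5% of the SP1 insertions of the locus fell in it. A busy position, chr14:57889536, with 36 insertions at P28, lies 800 bp downstream of the start.

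Garnl3, named for a GTPase-activating domain of the Rap and Ran type, is the longest member (145635 bp) and had the highest Syn1Cre level of the 10, 131 to 179 CPM. It gave 772, 791 and 714 CPM at P10 and 673, 955, 766 and 658 CPM at P28, about 5.11 and 5.14 times Syn1Cre. SP1 insertions there were spread out. The densest window held 21.3% of them and reached into the lower end of its neighbour Ralgps1, with the median in the gap between the genes, 782 bp from the nearer listed start of Garnl3 and 1201 bp from the Ralgps1 end. A further cluster of insertions stood about 45 kb into the gene in SP1 and Syn1Cre animals, as the plot of positions along the loci shows.

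Asf1a, a chaperone for histones H3 and H4, showed the smallest excess at P28. It gave 253, 312 and 241 CPM at P10 and 117, 129, 115 and 126 CPM at P28, against 42.6 to 63.2 CPM in Syn1Cre. The ratio of means was 5.07 at P10 and 2.30 at P28. Its cluster straddled the start, with the median 398 bp upstream, and held 51.9% of the SP1 insertions. Syn1Cre insertions in this locus lay mostly elsewhere, with 78.9% in the flank below the gene and 16.6% in the SP1 window. Asf1a lies within the span of Mcm9, a gene of the replicative helicase family, and those insertions are counted for both.

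Carm1, an arginine methyltransferase that acts as a coactivator of transcription, gave 253, 279 and 178 CPM at P10 and 160, 248, 219 and 151 CPM at P28. Syn1Cre ran from 11.3 to 45.2 CPM. The cluster median lay 1191 bp below the lower end of Carm1 and 370 bp above the upper end of AB124611, in the gap between them, so either gene end is near. Only 5 of 158 Syn1Cre insertions in the locus fell in that window, against 41 of 64 at P10 and 97 of 187 at P28.

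Mier3 belongs to a small family of chromatin regulators that recruit histone deacetylases. Its locus gave 392, 390 and 514 CPM at P10 and 177, 202, 261 and 175 CPM at P28, against 11.3 to 20.3 CPM in Syn1Cre, 26.9 and 12.7 times the Syn1Cre mean. The promoter of the gene is not where these insertions were. Within 2 kb of the lower gene end, where its start lies, there were 6 of 118 insertions at P10 and 15 of 207 at P28, while the upper flank held 91.5% and 85.02%. The positions chr13:111725372 and chr13:111725782 alone took 60 and 34 of the P28 insertions. The nearest annotated gene end is that of the pseudogene Gm15488, at 1056 bp, and no protein-coding gene spans the cluster.

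Foxh1, a forkhead factor that works with Smad proteins in nodal signalling, is the other locus named for a gene away from its cluster. It gave 207, 290 and 220 CPM at P10 and 190, 248, 255 and 151 CPM at P28, against 3.36 to 11.3 CPM in Syn1Cre. The median of the window, chr15:76660041, lay 167 bp inside the upper end of Cyhr1 and 257 bp inside the lower end of the kinesin gene Kifc2. Loci of both neighbours held the same insertions: the Kifc2 locus averaged 261 CPM at P10 and 232 CPM at P28, and the Cyhr1 locus 243 and 205 CPM. Near the lower end of Foxh1 itself, within 2 kb, there were 0 of 65 insertions at P10, which allows a share of up to 4.62%, and 21 of 200 at P28. Within 2 kb of the upper end there were 6 of 65 at P10 and 30 of 200 at P28.

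Atg4d, a protease of the autophagy pathway that processes Atg8 proteins, did not carry a dense cluster inside its locus. It held 10 insertions at P10 and 19 at P28, which is 46.1, 11.1 and 52.5 CPM and 17.3, 9.18, 12.2 and 20.8 CPM. Syn1Cre ran from 2.26 to 8.35 CPM, below every SP1 animal, but the counts are small. Within 30 kb of the gene the densest SP1 window lay 15714 bp past its upper end, from chr9:21290551 to chr9:21292481, across the start of Cdkn2d, an inhibitor of cyclin-dependent kinases (named after its position was seen). That window averaged 334 ± 62.8 CPM at P10 (SD, n = 3) and 203 ± 71.7 CPM at P28 (SD, n = 4), against 7.30 ± 2.46 CPM in Syn1Cre (SD, n = 6).

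**Figure D1:**
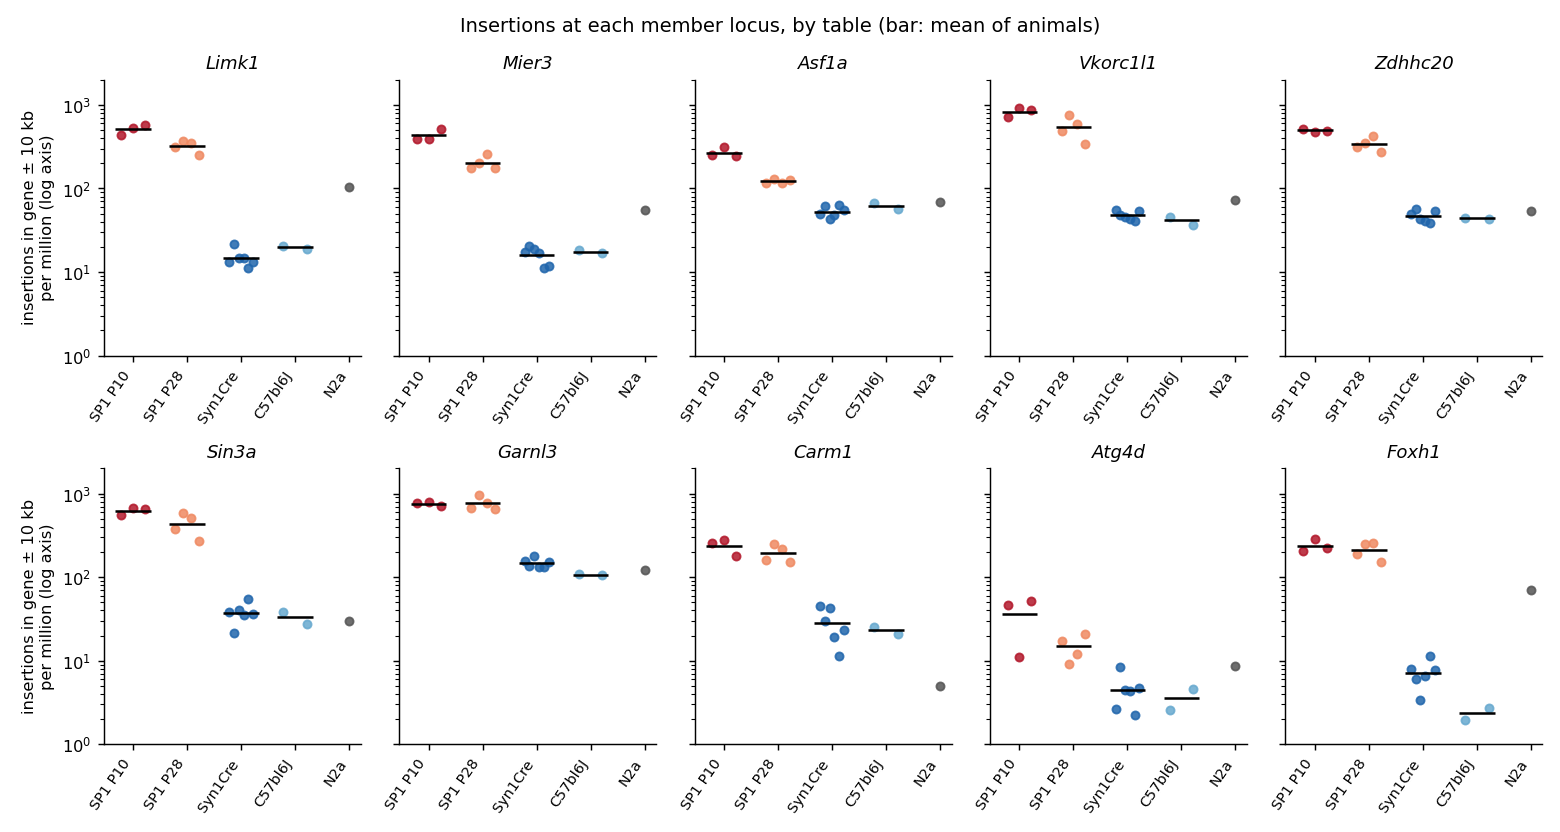
Insertions in CPM in each of the 10 loci (log axis), 1 point per animal or, for N2a, 1 point for the pooled table, with a bar at the mean of the animals. The SP1 points lie above all Syn1Cre points in all 10 panels, a contrast on which the genes were picked. Atg4d is the lowest panel, at 11.1 to 52.5 CPM at P10.

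**Figure D2:**
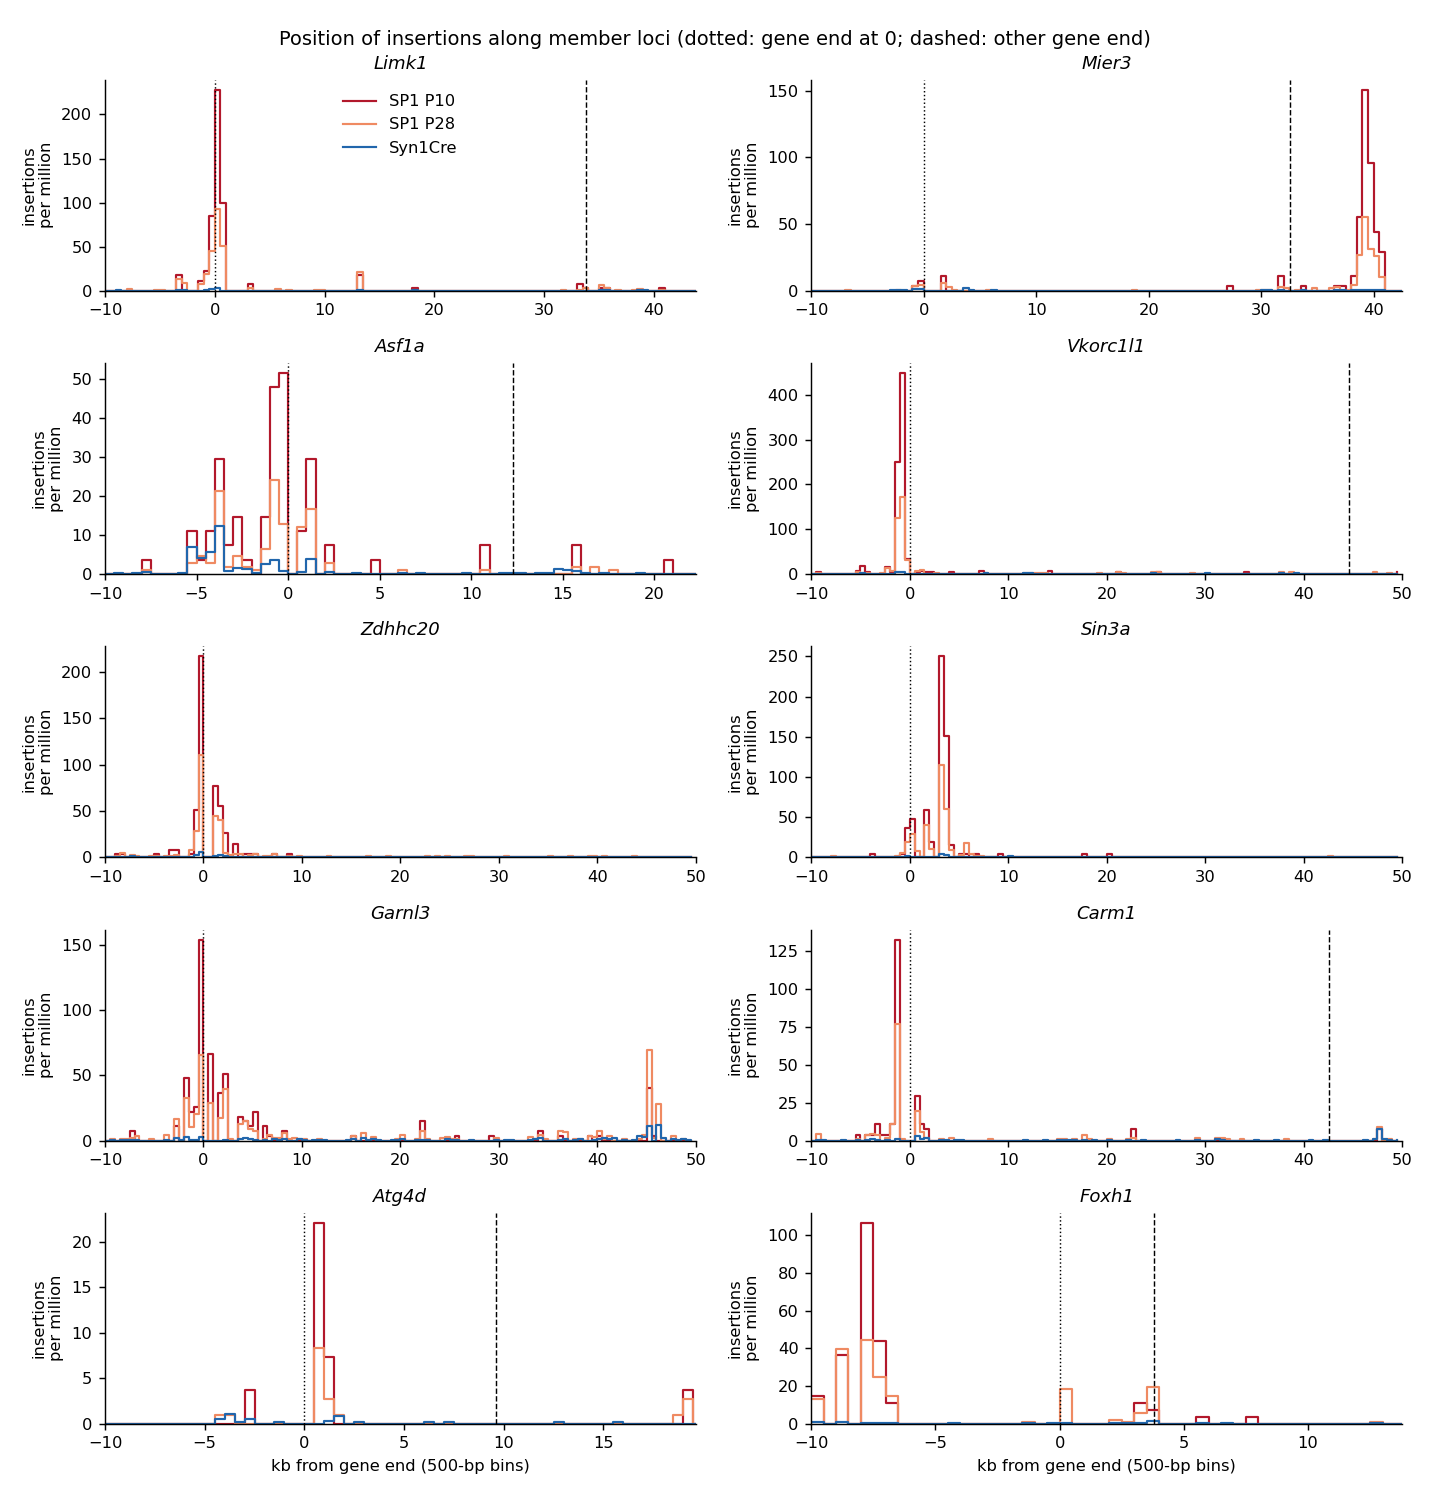
Insertions in CPM in 500-bp bins along each locus, with the animals of a group pooled; the x axis is the distance in kb from the gene end that carries the start (dotted line at 0; the lower gene end for Carm1 and Foxh1), positive into the gene, and a dashed line marks the other gene end where it is in range. The axis stops before the far end of the Garnl3, Zdhhc20, Sin3a, Vkorc1l1 and Carm1 loci, so insertions beyond it are not shown. SP1 insertions peak at or near 0 in most panels, 6776 bp past the dashed line for Mier3 and 7788 bp before 0 for Foxh1.

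In all, SP1 animals lay above all Syn1Cre animals at 10 of 10 loci. The share of all loci with that separation was not counted. In the fit over all loci, 9 members had enough insertions to be tested at each age, all 9 were called higher, and 26.2% of all loci tested were called higher at P28 (51.5% in either direction) and 19.6% at P10 (40.8% in either direction). Since the genes were picked on this contrast, nothing is read from either count. Summed over the 10 loci, the level was 4442 ± 265 CPM at P10 (SD, n = 3), 3144 ± 645 CPM at P28 (SD, n = 4) and 404 ± 30.9 CPM in Syn1Cre (SD, n = 6), a ratio of 10.98 and 7.78 to Syn1Cre. Counting each position once per animal brought the ratios to 5.15 and 3.89. The members' excess was thus smaller when repeat insertions at a TTAA were counted once.

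The name "strongest" holds for some members only. By fold over Syn1Cre at P28, Foxh1 ranked 2 and Limk1 ranked 9 of the 12053 loci tested, and Mier3, Sin3a and Vkorc1l1 ranked 47, 62 and 76. Zdhhc20 ranked 289, Carm1 386, Garnl3 681 and Asf1a 2748. By level at P10, among all 21631 loci, the ranks ran from 29 for Vkorc1l1 and 38 for Garnl3 to 709 for Carm1 and 7389 for Atg4d.

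Where insertions fell within a locus was compared with groups that had no part in choosing the window. In Syn1Cre the SP1 window held 34.9% of the locus's insertions at Limk1, 26.9% at Atg4d and 23.7% at Foxh1, and only 4.34% at Garnl3 and 3.17% at Carm1. All 10 members had a lower share in Syn1Cre than at P28, which the choice of the window on SP1 insertions, P28 included, fixes in large part, so nothing is read from that count. C57bl6J gave a like pattern, from 46.6% at Limk1 to 4.71% at Carm1. Unfused transposase therefore entered the same windows, at a low level: 4.71 ± 2.54 CPM at Limk1 and 0.951 ± 0.985 CPM at Carm1 in Syn1Cre (SD, n = 6), against 246 ± 63.1 and 109 ± 35.8 CPM at P28 (SD, n = 4).

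**Figure D3:**
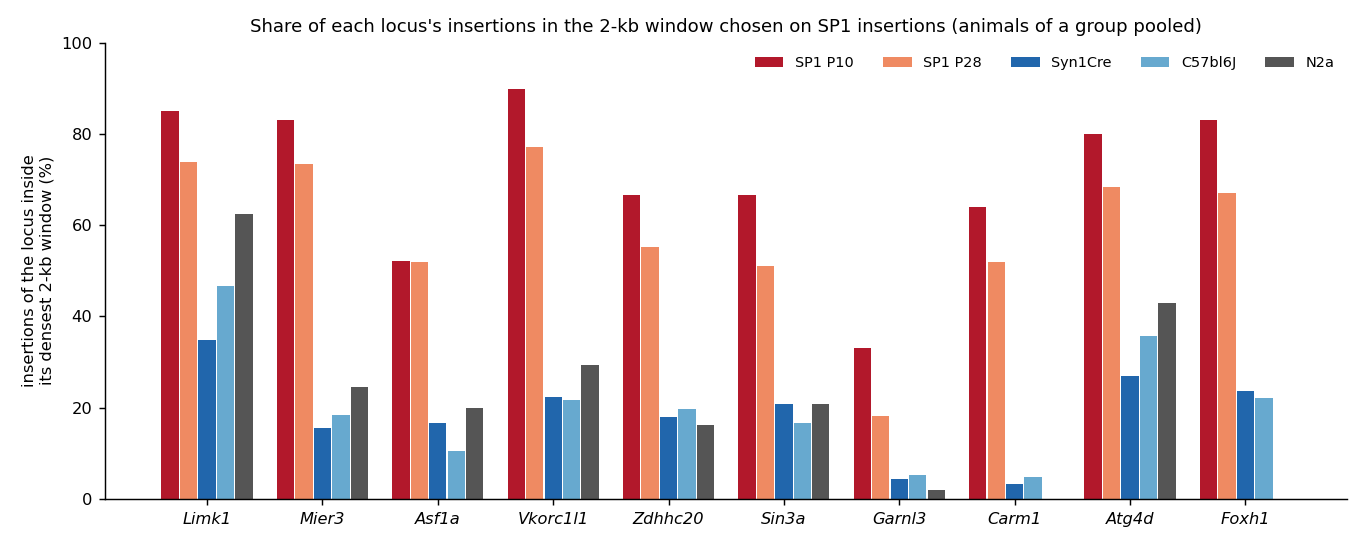
Percent of each locus's insertions that fell in its densest 2-kb SP1 window, with the animals of a group pooled (N2a is 1 table). The window was chosen on the SP1 insertions, so the SP1 bars are high by choice; the Syn1Cre bars run from 3.17% at Carm1 to 34.9% at Limk1.

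Insertions upstream of the starts had a marked orientation. Within 2.5 kb upstream of the start nearest the cluster, the strand given in the tables was opposite to that of the gene for 83.5% of P10 and 79.4% of P28 insertions at Limk1, 83.9% and 83.3% at Sin3a, 82.4% and 79.9% at Zdhhc20, and 84.4% and 86.0% at Asf1a. In each of these 4 genes, and at Vkorc1l1, the opposite strand was in the majority in all 7 SP1 animals. Vkorc1l1 gave 73.0% and 71.1%. Garnl3, whose upstream side faces Ralgps1, lay nearer to even, at 55.9% and 46.0%. The bias was not particular to SP1 or to these genes: over 17274 annotated starts the opposite strand made up 81.1% to 81.7% of upstream insertions in the P10 animals, 79.1% to 84.1% at P28 and 78.6% to 81.5% in Syn1Cre. Downstream of the starts the same strand as the gene made up 50.3% to 51.1% at P10 over all starts. Members varied on that side at P10, from 84.6% of 13 insertions at Asf1a and 76.7% of 43 at Zdhhc20 to 42.9% of 42 at Garnl3 and 12.5% of 8 at Atg4d, with 5 or fewer insertions at Limk1, Vkorc1l1 and Sin3a. Which end of the transposon the strand column marks is not given in the sources used here.

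Insertions inside the clusters also carried more reads in the SP1 animals, by a margin that differed between members. At Sin3a the median was 45.0 reads per insertion in the window and 13.0 in the rest of the locus at P10, and 60.5 and 10.0 at P28. At Vkorc1l1 it was 31 and 7 at P10, and 32 and 11 at P28. The margin was small at P28 for Mier3, with 15 reads inside and 13 outside, and for Foxh1, with 16.5 and 14.5. In Syn1Cre the medians were 2 to 5 reads inside the windows and 3 to 6 outside, higher inside at Limk1 (5 against 3), Mier3, Garnl3 and Carm1 and lower inside at Sin3a (3.5 against 4), Vkorc1l1, Zdhhc20, Atg4d and Foxh1. Reads per insertion follow the RNA made from a transposon and the amplification, and are not counts of molecules.

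Between P10 and P28 the SP1 levels of several members were lower at the later age. The fit compares 4 with 3 animals on independent tables. This contrast was not used to pick the genes, but they were picked on high SP1 values of both ages, the values compared here. Earlier results of these data were also known. Of the 9 members tested (Atg4d had too few insertions), 3 fell and none rose, while 3.73% of all 3460 loci tested were called lower, 7.49% higher and 11.2% in either direction. Mier3 fell by 1.00 on the log2 scale (SE 0.21, edgeR adjusted p = 0.00565), Asf1a by 1.00 (SE 0.22, edgeR adjusted p = 0.00676) and Limk1 by 0.62 (SE 0.20, edgeR adjusted p = 0.0440). At these 3 genes, and at Zdhhc20, every P28 animal lay below every P10 animal. The share of all loci so separated was not counted, so nothing is read from this. The log2 fold change was -0.58 (SE 0.21, adjusted p = 0.0720) at Vkorc1l1, -0.50 (SE 0.22, adjusted p = 0.131) at Sin3a and -0.47 (SE 0.20, adjusted p = 0.122) at Zdhhc20, none past 0.05 in the edgeR fit. Carm1, Foxh1 and Garnl3 gave -0.25, -0.15 and 0.09, with 95% intervals from -0.72 to 0.22, -0.61 to 0.31 and -0.30 to 0.47. The median over the 9 members was -0.50, and over all loci tested 0.03.

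These calls depend on single animals. Without P10 animal 3 none of the 3 was called (edgeR adjusted p = 0.0800 for Mier3, 0.0573 for Asf1a and 0.241 for Limk1), and 7 loci were called in all in place of 388. Without P10 animal 2 only Mier3 was called. Limk1 also lost its call without P10 animal 1, P28 animal 1 or P28 animal 3 (edgeR adjusted p = 0.0820, 0.111 and 0.0670) and with DESeq2 (adjusted p = 0.0766).

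**Figure D4:**
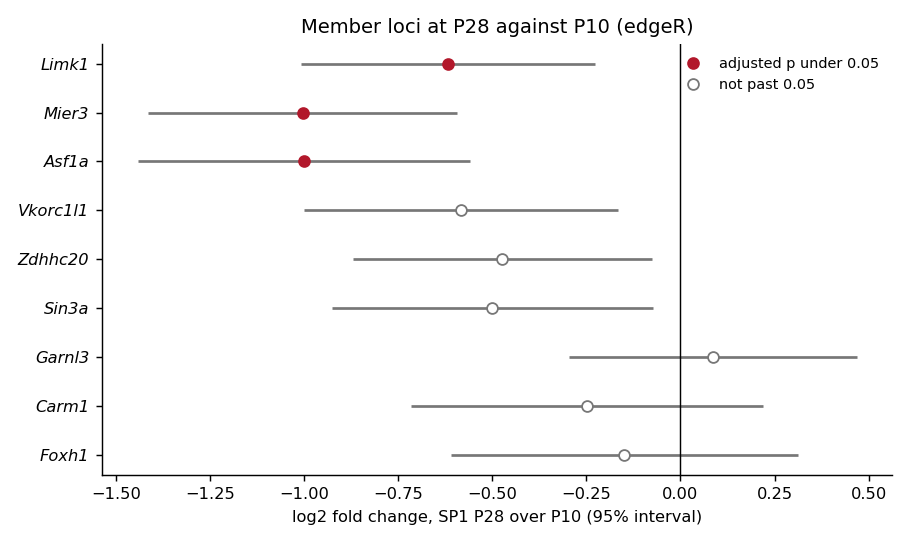
Log2 fold change of the 9 members tested, SP1 P28 over P10, with 95% intervals from the standard errors of the edgeR fit; filled points have an adjusted p under 0.05. The filled points are Mier3, Asf1a and Limk1 (at -0.62), and Garnl3 lies at 0.09.

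The levels were also read inside and outside the dense windows, which were chosen on the pooled SP1 insertions of both ages. The tests that follow therefore use the values that set the windows. With 3 against 4 animals they also cannot fall under 0.05, so nothing is read from their p-values. Summed over the 10 windows, the level was 2718, 3186 and 3274 CPM in the P10 animals and 1583, 2387, 2145 and 1072 CPM in P28 animals 1 to 4. All P28 animals lay below all P10 animals. The mean was 3059 ± 299 CPM at P10 (SD, n = 3) and 1797 ± 589 CPM at P28 (SD, n = 4; exact two-sided permutation test, p = 0.0571, the smallest that 3 against 4 animals allow; Benjamini-Hochberg adjusted 0.0762 over 4 such tests). In the rest of the 10 loci the level was 1383 ± 118 CPM at P10 (SD, n = 3) and 1348 ± 87.0 CPM at P28 (SD, n = 4; exact two-sided permutation test, p = 0.686), a difference smaller than the spread between animals. That sum covers members that went different ways outside their windows: the mean there was 129 CPM at P10 and 49.9 CPM at P28 for Asf1a, 73.1 and 42.5 CPM for Mier3, and 77.6 and 73.0 CPM for Limk1, against 508 and 597 CPM for Garnl3. Inside the windows the means were 139 and 71.8 CPM for Asf1a, 359 and 161 CPM for Mier3, and 435 and 246 CPM for Limk1. The share of the summed loci inside the windows was 68.8% ± 3.43 at P10 (SD, n = 3) and 56.0% ± 8.16 at P28 (SD, n = 4). With the animals of an age pooled, the share was lower at P28 at 10 of 10 members, at Asf1a by 52.1% against 51.9%. By animal Asf1a overlapped, at 46.4% to 60.9% at P10 and 48.1%, 78.6%, 63.2% and 45.2% at P28.

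Depth moved with the same values. Among the P28 animals the window level fell as the number of insertions in the table rose: 2387 CPM with 108945 insertions, 2145 with 164575, 1583 with 231854 and 1072 with 577463. The rest of the loci gave 1450, 1361, 1238 and 1342 CPM in the same order. Of the member positions, with both strands counted together, 28 held 10 or more insertions in the deepest table (animal 4). There were 7 in the shallowest P28 table (animal 2), against 3, 9 and 12 in the P10 tables. The ceiling holds for each strand, so such a position need not have reached it. The part that the ceiling of 10 pieces plays in the difference between ages was not tested. P28 animal 2, the P28 table closest in depth to the P10 animals, was still deeper than every P10 table (at most 95309 insertions). It had 2387 CPM in the windows, against 2718 CPM in the lowest P10 animal. The parts of age and depth in this difference were not tested. Without P28 animal 4 the 3 calls stayed, with an edgeR adjusted p of 0.000324 for Mier3, 0.000386 for Asf1a and 0.0359 for Limk1. P28 animals 2 to 4 shared sequencing pools with P10 animals, while P28 animal 1 did not.

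**Figure D5:**
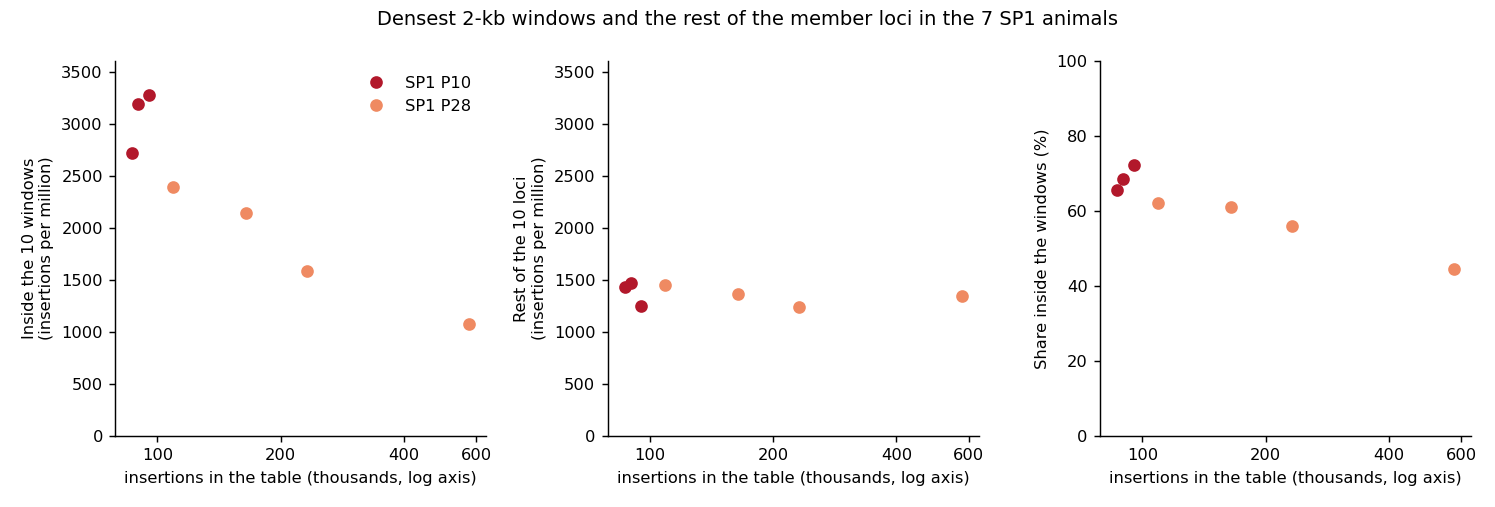
Level summed over the 10 densest windows (left), over the rest of the 10 loci (middle) and the share inside the windows (right) in the 7 SP1 animals, against the number of insertions in the table (log axis). Among the P28 animals the left panel falls from 2387 CPM at the shallowest table to 1072 CPM at the deepest. The P10 points rise with depth, from 2718 to 3274 CPM. The middle panel stays between 1238 and 1471 CPM.

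The groups with unfused transposase were compared with each other at the same loci. Of the 8 members tested in C57bl6J against Syn1Cre, none was called (0.81% of all loci were called, 0.789% higher and 0.0208% lower), with 3 at an unadjusted p under 0.05: Limk1 had a log2 fold change of 0.53 (SE 0.22, edgeR adjusted p = 0.290), Asf1a of 0.37 (SE 0.16, adjusted p = 0.310) and Garnl3 of -0.33 (SE 0.14, adjusted p = 0.321). DESeq2 also called none of them. Of the 8 tested in GFAPCre against Syn1Cre, none was called (2.15% of all loci were called, 0.961% higher and 1.19% lower), with 1 at an unadjusted p under 0.05, Garnl3 at -0.25 (SE 0.11, edgeR adjusted p = 0.220), and DESeq2 called none. Foxh1 and Atg4d had too few insertions to be tested in both comparisons. Summed over the 10 loci, the other groups with 6 animals gave 371 ± 29.8 CPM in GFAPCre, 348 ± 42.7 CPM in GFAPCreNeg and 348 ± 50.1 CPM in Syn1CreNeg (SD, n = 6 each), against the 404 CPM of Syn1Cre. The smaller tables gave 321 ± 89.6 CPM in BrokenHeart, where insertions were read from DNA (SD, n = 3), 399 ± 59.3 CPM in Rbp4Cre_TRAP (SD, n = 4) and 356 ± 79.7 CPM in Frontflip_GFAPCre (SD, n = 3). Frontflip_GFAPCreNeg held 5 insertions at the 10 loci in 3 animals.

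The N2a table showed member levels of its own. The values have no replicate check, and the intervals that follow are exact Poisson 95% intervals for counting error. Foxh1 stood at 69.5 CPM (56 insertions, 52.5 to 90.2), against 1.94 and 2.74 CPM in the C57bl6J animals, a ratio of 29.7. Limk1 stood at 105 CPM (85 insertions, 84.2 to 130), against 20.7 and 18.8 CPM, a ratio of 5.35. Mier3 stood at 55.8 CPM (40.7 to 74.7), against 18.1 and 16.9 CPM. Carm1 was lower, at 4.96 CPM from 4 insertions (1.35 to 12.7), against 25.2 and 21.0 CPM. For the other 6 loci the ratio to the C57bl6J mean lay between 0.899 at Sin3a and 2.43 at Atg4d, the latter from 7 insertions.

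The N2a insertions at Foxh1 were not at the SP1 cluster. None of the 56 fell in the SP1 window, which allows a share of up to 5.36%, and 48 lay within 2 kb of the lower end of Foxh1, with the busiest position, chr15:76668213 (20 insertions), 384 bp inside the gene and close to the upper end of Kifc2. At Limk1, in contrast, 53 of 85 N2a insertions lay in the SP1 window, 21 of them at chr5:134689948.

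Beyond the members, the 5 loci whose level followed the mean member profile most closely over the 15 tables of SP1 P10, SP1 P28, Syn1Cre and C57bl6J were Cnn2, Atxn7l3, Fxyd1, Btbd2 and Fiz1, with a Pearson r of log2(CPM + 1) from 0.996 to 0.998. The tables fall into SP1 and unfused groups, so that r mainly restates that contrast and has no test. Atxn7l3, a subunit of the SAGA deubiquitinase module, averaged 455 CPM at P10, 280 at P28 and 22.1 in Syn1Cre. Cnn2, a calponin, averaged 371, 238 and 20.0 CPM.

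Paralogues of the members did not share their SP1 excess as a group. Of 15 paralogues, 10 were tested at P28 against Syn1Cre: 3 rose and 2 fell, with a median log2 fold change of 0.06 against -0.06 over all loci, and 26.2% and 25.3% of all loci called higher and lower. At P10, of 11 tested, 4 rose and 2 fell (19.6% and 21.2% of all loci), with a median of -0.47 against -0.28. Limk2, the sister kinase of Limk1, rose by 1.19 at P28 (SE 0.19, edgeR adjusted p = 8.34e-06) to 117 CPM from 36.9 CPM. Prmt1, the major arginine methyltransferase, rose by 1.66 at P10 (SE 0.34, edgeR adjusted p = 0.000293), and Zdhhc15, another palmitoyltransferase, fell by 2.42 (SE 0.59, edgeR adjusted p = 0.00188).

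Against Syn1Cre, genes often given as SP1 targets were called at rates near those of all loci at P28. At P10 that held for higher calls, while lower calls were more frequent than over all loci. Of 20, 19 were tested at P28, where 5 rose and 4 fell against Syn1Cre (26.2% and 25.3% of all loci; median 0.03), and 18 at P10, where 4 rose and 7 fell (19.6% and 21.2% of all loci; median -0.37). At P28 against P10, 4 of 7 tested rose (7.49% of all loci), with a median of 0.98 against 0.03 over all loci, led by Grin2b at 1.49 (SE 0.24, edgeR adjusted p = 0.00144). None of the 4 paralogues tested between the ages was called (median -0.16), against 11.2% of all loci in either direction. E2f1, a cell-cycle activator, rose by 2.71 at P10 (SE 0.36, edgeR adjusted p = 9.76e-07), while the glutamate receptor genes Grin2b and Grin1 fell by 2.64 (SE 0.19, edgeR adjusted p = 5.41e-11) and by 3.49 (SE 0.81, edgeR adjusted p = 0.00116). Of the 4 Sp genes, 2 rose at each age and none fell, with a median of 1.95 at P10 and 1.14 at P28: Sp1 itself rose by 3.12 at P10 (SE 0.16, edgeR adjusted p = 6.35e-14) and 2.13 at P28 (SE 0.17, edgeR adjusted p = 2.25e-10), and Sp4 by 2.96 at P10 (SE 0.24, edgeR adjusted p = 2.68e-10). Sp1 and Sp4 were also both called lower at P28 than at P10, with a log2 fold change of -0.94 (SE 0.21, edgeR adjusted p = 0.00628) and -0.99 (SE 0.24, edgeR adjusted p = 0.00931). Of all loci tested between the ages, 3.73% were called lower. Of 12 housekeeping genes, 9 were tested at each age; 3 rose at P28 (median 0.26) and 1 at P10 (median -0.15), and none fell.

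Loci of cell type markers were also read between the ages, where 7.49% of all loci tested were called higher and 3.73% lower. At P28 against P10, 1 of 7 tested neuron markers rose (Syt1, a synaptic vesicle calcium sensor) and 1 fell (Gad2, a GABA-synthesising enzyme), with a median of 0.18. Of 4 tested astrocyte markers, 2 rose: the glutamate transporter genes Slc1a2 by 1.00 (SE 0.24, edgeR adjusted p = 0.0101) and Slc1a3 by 0.83 (SE 0.27, edgeR adjusted p = 0.0460), with a median of 0.82. The 1 oligodendrocyte marker tested was not called, and no microglia marker had enough insertions. Against Syn1Cre, where 26.2% of all loci were called higher and 25.3% lower at P28, and 19.6% and 21.2% at P10, 3 of 8 neuron markers rose and 3 fell at each age; of 6 astrocyte markers 1 rose at P28 and 1 fell at P10; of 5 oligodendrocyte markers 2 fell at P28 and 1 at P10. The 1 microglia marker tested was not called. Insertion at a gene is not its expression, and the part of these shifts in the member values was not tested.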

How the data were processed

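Calling card insertions were deposited as 1 table per animal (46 animals) and 1 pooled N2a table, made from 194 sequencing pools. Per the labels, the 10 separately indexed pieces of a cortex were pooled into its table; the submitters' processing notes name Novoalign, Bowtie2 and mm10, and other steps are not given in the sources used here. The deposited column used is the read count of each insertion, and each row counts as 1 insertion whatever its read count (1 alternative needs at least 2 reads). Rows on chromosomes 1 to 19 and X were counted in gene bodies ± 10 kb of RefSeq protein-coding genes (GRCm38.p6) and divided by the table's total.

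Comparisons used edgeR 4.0.16 quasi-likelihood tests (R 4.3.3; TMM, filterByExpr, Benjamini-Hochberg over all loci tested, threshold 0.05), with DESeq2 1.42.0 as an alternative. On simulated counts with 200 loci changed 3-fold, 76% were recovered in P28 against P10 (3460 loci), 82% in SP1 P28 (12053) and 33.5% in SP1 P10 against Syn1Cre (12861), 93.5% in C57bl6J (14445) and 88.5% in GFAPCre against Syn1Cre (11553); of the simulated calls, 3.8%, 4.65%, 6.94%, 12.6% and 8.76%, in that order, were of unchanged loci. Python 3.11.15 and scipy 1.17.1 gave intervals and exact permutation tests.

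The members and gene lists were chosen with earlier results of these data known. Named are the members, protein-coding genes overlapping their loci, the 5 loci of closest profile and, from each list, some of the 3 with the largest change past the threshold; Cdkn2d, Gm15488 and 2700012I20Rik were named for their position. Lists: paralogues, often-cited SP1 targets, Sp genes, housekeeping genes and cell type markers. Nothing says how animals were assigned to litters or days, so p-values measure the spread between these animals. Same-numbered animals of different groups did not deviate together (in P28 against P10 the correlations were 0.06, 0.08 and -0.00054), so numbers were not used as pairs. Poisson intervals and limits for a count of 0 cover counting error only; those of log2 fold changes include the spread between animals.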

Additional observations from a re-analysis of the deposited data

Results flagged for a closer look

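In groups of 4 to 10 animals, an animal was noted where its gap to the nearest other animal was large for the range of the group (Dixon's criterion at 95%). Over 66 groups tested, 7 values were noted, and chance gives about 1 in 20 groups. Limk1 stood at 82.0 CPM in Rbp4Cre_TRAP animal 4, from 2 insertions. It stood at 21.5 CPM in Syn1Cre animal 2, the highest of that group. Mier3 stood at 7.80 CPM in GFAPCreNeg animal 2, the lowest of its group, and at 22.8 CPM in GFAPCre animal 4. Sin3a stood at 49.9 CPM and Foxh1 at 11.7 CPM in GFAPCre animal 6. Foxh1 stood at 0 in Syn1CreNeg animal 2, where 97498 insertions allow a level of up to 30.8 CPM. No P28 animal was noted at any member; the 3 P10 animals are too few for the criterion.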

How the results depend on the processing

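In the alternatives that gave a value, the 9 members other than Atg4d kept their direction in SP1 against Syn1Cre; in gene bodies without flanks, which leave out the window upstream of Vkorc1l1, its log2 fold change at P10 was 0.66 (edgeR adjusted p = 0.251) and 6 members were called in place of 9. P28 against P10 gave 388 called loci, and 167 with DESeq2, 212 with distinct positions, 196 in gene bodies without flanks and 7 to 539 when an animal was left out (7 without P10 animal 3); members called ran from 0 to 4 when an animal was left out. Signs turned for Garnl3 (-0.011 with scaling by total insertions) and Foxh1 (0.024 with the replicate block); neither was called. C57bl6J against Syn1Cre gave 117 loci, and 54 with scaling by total insertions, 66 with DESeq2, 6 with at least 2 reads, 1337 with Syn1Cre animals 1 to 3 alone (1 member called, Asf1a) and 2 to 250 when an animal was left out. GFAPCre against Syn1Cre gave 248 loci, and 134 with distinct positions, 1634 with Syn1Cre animals 1 to 3 alone, 74 with animals 4 to 6 alone and 128 to 846 when an animal was left out. SP1 P28 against Syn1Cre gave 6213 loci, 3863 with distinct positions and 2840 in gene bodies; SP1 P10 gave 5250 and 2337 in gene bodies. The summed ratio moved from 7.78 to 3.89 at P28 and from 10.98 to 5.15 at P10 with distinct positions, and to 7.69 at P10 in gene bodies. With the replicate number as a block, although the numbers did not pair the animals, C57bl6J against Syn1Cre gave 1112 loci and P28 against P10 gave 528, with the same number of members called. Causes were not tested. The P10 tables, at most 95331 insertions each, are the shallowest of those tested; P28 against P10 tested 3460 loci, and SP1 P10 against Syn1Cre 12861.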
